A study of Mus musculus with 9 samples.

Results

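The genes described here are the 8 that encode the opioid receptors and the precursors of the opioid peptides: Oprm1, Oprd1, Oprk1 and Oprl1 for the receptors, and Penk, Pdyn, Pnoc and Pomc for the precursors. They were found on the array by gene name, by an older symbol or by RefSeq transcript. All 8 had at least 1 probe, with 13 probes of the 41174 on the array, and 7 of the 8 could be tested among 20903 genes. Oprd1 could not.

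The samples were L3/L4 dorsal root ganglia (DRG), the clusters of sensory neuron cell bodies beside the spinal cord, from adult mice. Uninjured DRG made up 4 samples and DRG taken 3 days after transection of the sciatic nerve made up 5. The results text of the source study also names an earlier time for its DRG profiling, so the time given here is that of the labels and methods. All 9 samples were labelled cre.neg and jun.wt, and strain, sex and an age beyond adult are not given in the sources used here. The study's methods name contralateral DRG as controls for its other assays of crushed nerves, and for the arrays they speak only of DRG without injury. The sources used here do not say that each sample was a separate animal, so the p-values measure the spread between these samples, which may be technical. Each array carried DRG cRNA in the red dye Cy5 and a common mouse reference RNA in the green dye Cy3, with no dye swap. A level below is the log2 of Cy5 over Cy3 for a probe, and a difference is the injured mean minus the uninjured mean of that level. Net Cy5 is the red brightness of a spot after subtraction of its local background, and it is compared only within a probe.

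Opioid receptors are G protein-coupled receptors of the inhibitory Gi/o class. On primary sensory neurons they lower adenylyl cyclase activity, open inwardly rectifying potassium channels and close voltage-gated calcium channels, which reduces transmitter release in the spinal cord. Oprm1 encodes the mu receptor, the main target of morphine, Oprd1 the delta receptor, Oprk1 the kappa receptor and Oprl1 the nociceptin receptor. Penk gives rise to the enkephalins, Pdyn to the dynorphins, Pnoc to nociceptin and Pomc to beta-endorphin among other peptides.

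The red channel had a median brightness of 156 to 238 across the arrays, and 71.0 to 78.9% of spots were well above background. The uninjured arrays 2, 3 and 4 shared slide 1, uninjured 1 shared slide 2 with injured 1, 2 and 5, and injured 3 and 4 were on slide 3. Sensory neuron markers were present: all 9 on the list, among them Prph, Avil and Scn10a, were above background on every array. Of the 9, 1 was called, Isl1, lower by -0.51, beside 25.4% of all genes called in either direction. Of 9 spinal cord markers, Slc6a5, Olig2 and Mog were not above background on any array, Gad2 was on 2, Gad1, Slc32a1 and Chat on 6 at most, Gfap on 7 and Aqp4 on all 9. Of the 5 tested, Gfap was called higher, by 1.08, and Aqp4 (-0.52) and Gad1 (-0.20) were called lower. Over all genes 11.4% were called higher and 14.0% lower. The mean of the muscle marker list stood 3.21 (log2) above the uninjured mean on injured 4 and 1.57 above it on injured 2. The red blood cell list stood 1.19 above on injured 2 and 1.22 above on injured 5, and the macrophage list 1.19 and 1.11 above on the same arrays. No member of the muscle or red blood cell lists, of 4 and 3 genes, was called, beside 25.4% of all genes. Their differences nevertheless ran from 0.58 to 1.55 for muscle and from 0.27 to 0.91 for red blood cells. The 7 tested genes and the called genes of the lists were also fitted without injured 2 and 4, and without injured 2 and 5, settings chosen after seeing the data, and Gad1 was called in neither.

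Of the 7 tested genes, 3 were called lower in injured DRG (Oprl1, Oprk1 and Oprm1), 1 was called higher (Pomc) and 3 were not called (Penk, Pdyn and Pnoc), at an adjusted p of 0.05 in limma over all genes tested. Across all genes 25.4% were called, 14.0% lower and 11.4% higher. The median difference was -0.42 over the 7 genes and 0.001 over all genes. Groups of arrays did not overlap for 4 of the 7 genes, the same 4 that were called, and for 23.8% of all genes. Each of the 3 tested receptor genes was called lower, and of the 4 precursors Pomc was called.

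**Figure D1:**
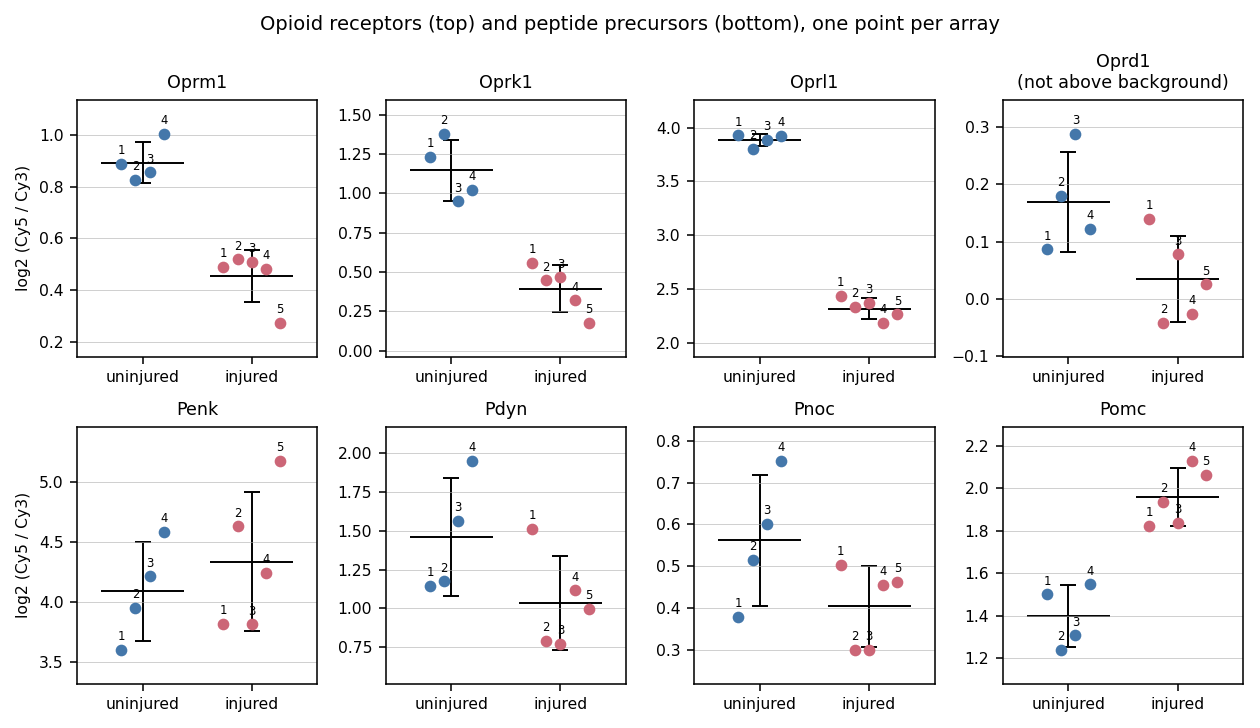
Each panel plots log2 (Cy5/Cy3) of the brightest probe of a gene on the 4 uninjured and 5 injured arrays, numbered by array, with the group mean (long line) and SD (bar); axes differ between panels. The 2 groups do not overlap for Oprm1, Oprk1, Oprl1 and Pomc, and overlap for the other 4 genes, of which Oprd1 was not above background on any array.

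Oprl1, the nociceptin receptor, had the largest difference of the 7. Its brightest probe, A_52_P99678 (chr2:182221481-182221540, mm7, the build of the array design), had levels of 3.93, 3.80, 3.88 and 3.92 on uninjured arrays 1 to 4. On injured arrays 1 to 5 the levels were 2.44, 2.33, 2.37, 2.19 and 2.26. The highest injured array thus lay more than 1 log2 unit below the lowest uninjured array. The mean fell from 3.89 ± 0.0577 (SD, n = 4) to 2.32 ± 0.0965 (SD, n = 5), a difference of -1.57 (SE 0.0644), or 33.7% of the uninjured level (limma, adjusted p = 1.27e-07). With every way of dividing the 9 arrays into groups of 4 and 5 counted, an exact two-sided permutation test gave p = 0.00794, the smallest this design allows. Net Cy5 was 1470, 1483, 1735 and 1556 on the uninjured arrays and 551, 493, 524, 371 and 307 on the injured arrays. In whole ganglia, fewer cells of a type and less RNA per cell cannot be told apart, and this holds for every difference below.

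The other Oprl1 probe did not show this. A_52_P297290 (chr2:182216755-182216814, mm7) lies at lower coordinates of the same chromosome and is assigned by the array design to the same RefSeq transcript. Its levels ran from 0.20 to 0.48 in uninjured and from 0.23 to 0.37 in injured DRG, and the groups overlapped. The difference was -0.01 (SE 0.0666, 95% interval -0.16 to 0.14, limma adjusted p over probes = 0.942). In net Cy5 it measured 287, 329, 313 and 131 on the uninjured arrays against 328, 305, 373, 294 and 195 on the injured arrays. The reference channel was above background on all 9 arrays for this probe and on 5 of 9 for the first. The fall of Oprl1 therefore rests on 1 of its 2 probes, and which transcripts each probe detects was not tested.

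Oprk1, the kappa receptor, was lower on every injured array than on any uninjured array. Its single probe, A_51_P377528 (chr1:5602727-5602786, mm7), gave levels of 1.23, 1.38, 0.95 and 1.02 in uninjured and 0.56, 0.45, 0.47, 0.32 and 0.18 in injured DRG. The means were 1.15 ± 0.196 (SD, n = 4) and 0.39 ± 0.148 (SD, n = 5). The difference was -0.75 (SE 0.104, limma adjusted p = 0.000491), which is 59.4% of the uninjured level, and the exact permutation p was 0.00794. In net Cy5 the probe measured 170, 214, 138 and 128 against 61.7, 55.3, 76.7, 35.9 and 22.1. On injured 5 it was not above background, and the reference channel was not above background for it on any array. Without an offset in the background correction the difference was -1.31 (limma adjusted p = 0.00242), larger in size than with the offset of 50. From Cy5 alone, which kept the offset of 50, it was -0.99 (limma adjusted p = 0.000435).

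Oprm1, the mu receptor, was covered by 3 probes, of which 2 were called lower. The brightest, A_51_P100309 (chr10:3516154-3516213, mm7), had levels of 0.89, 0.83, 0.85 and 1.00 in uninjured and 0.49, 0.52, 0.51, 0.48 and 0.28 in injured DRG. The 5 injured arrays all lay below the 4 uninjured arrays, with injured 5 apart from the rest of its group. The mean went from 0.89 ± 0.0776 (SD, n = 4) to 0.46 ± 0.102 (SD, n = 5), a difference of -0.44 (SE 0.0683, limma adjusted p = 0.00104; exact permutation p = 0.00794). The level in injured DRG was 73.9% of the uninjured level on this scale. Net Cy5 was 106, 96.5, 102 and 120 against 68.4, 65.8, 85.5, 49.4 and 28.8.

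The second Oprm1 probe, A_52_P498441 (chr10:3309054-3309112, mm7), had levels of 0.58, 0.54, 0.51 and 0.54 in uninjured and 0.14, 0.18, 0.29, 0.13 and 0.20 in injured DRG. Again the groups did not overlap, and the difference was -0.36 (SE 0.0552, limma adjusted p over probes = 0.00104). Over all probes tested, 23.5% were called. The third probe, A_51_P118688, is assigned to a transcript variant, and the array design places it across chr10:3557952-3587890 (mm7). Like the second probe, it was matched to Oprm1 by gene symbol, while the first was matched by RefSeq transcript. It had levels between -0.06 and 0.06 on all 9 arrays and a difference of -0.01 (SE 0.0552, 95% interval -0.13 to 0.11, limma adjusted p over probes = 0.901). Its groups overlapped. The reference channel of the first probe was above background on 1 of 9 arrays, and with no offset the difference of that probe was -1.08 (SE 0.128, limma adjusted p = 0.000426).

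Oprd1, the delta receptor, was not measured well enough to compare. Its single probe, A_52_P7379 (chr4:131325891-131325950, mm7), was not well above background on any of the 9 arrays. Net Cy5 was 15.5, 16.8, 22.3 and 18.3 in uninjured and 15.2, 3.17, 19.2, 8.26 and 4.97 in injured DRG. The groups overlapped (exact permutation p of the levels = 0.0556), and no fold is given between values at background.

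**Figure D2:**
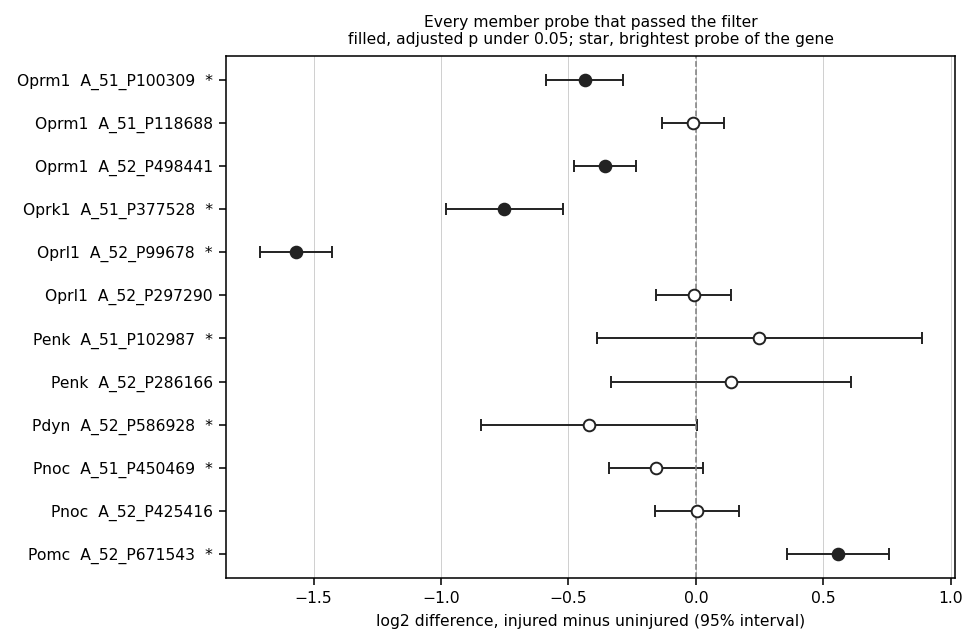
The difference in log2 (Cy5/Cy3), injured minus uninjured, with its 95% interval for each of the 12 probes that passed the filter; filled points had an adjusted p under 0.05 over all probes, and a star marks the brightest probe of a gene. Oprl1 and Oprm1 each have a probe near 0 beside the probes that were lower.

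Within slide 2, the only slide that held both groups, the 3 receptors stood lower by similar amounts. The difference of injured 1, 2 and 5 from uninjured 1 was -1.59 for Oprl1, -0.84 for Oprk1 and -0.46 for Oprm1. A fit on all arrays with slide as a fixed block takes its difference from slide 2 alone, so the same differences were fixed by the design. Its limma adjusted p-values were 0.000517 for Oprl1, 0.0465 for Oprk1 and 0.0846 for Oprm1, and its differences rest on 1 uninjured array. With slide 2 alone, which leaves 1 uninjured array, the adjusted p in limma was 0.0273 for Oprl1, 0.156 for Oprk1 and 0.304 for Oprm1. Without injured 2 and 4, the arrays with the raised muscle list, Oprl1 differed by -1.53 (limma adjusted p = 9.5e-06), Oprk1 by -0.74 (adjusted p = 0.00699) and Oprm1 by -0.47 (adjusted p = 0.00842). The mean of the 3 receptor levels relative to uninjured DRG was between -1.07 and -0.81 on the injured arrays and between -0.08 and 0.04 on the uninjured arrays.

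Markers of the neurons that could carry these receptors did not move as 1 group. Of 4 tested markers of non-peptidergic nociceptors, the small-diameter pain-sensing neurons without neuropeptides, Lpar3 was lower by -1.07 (limma adjusted p = 0.00444), Gfra2 was lower by -0.75 (adjusted p = 0.00143), Ret was higher by 0.27 (adjusted p = 0.0155) and P2rx3 was not called. The mean of this list lay between -0.66 and -0.13 on the injured arrays and between -0.08 and 0.14 on the uninjured arrays. Of 4 tested markers of peptidergic nociceptors, 1 was called, Adcyap1, higher by 0.58 (adjusted p = 0.00976). Beside the counts of both lists, 25.4% of all genes were called in either direction. Without injured 2 and 4, Ret was not called (adjusted p = 0.0614). These genes come from marker lists, and the part of cell composition in the receptor differences was not tested.

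Pomc was the only one of the 7 tested genes that was called higher. Its probe, A_52_P671543 (listed under the older symbol Pomc1, chr12:3878789-3878848, mm7), gave levels of 1.5, 1.24, 1.31 and 1.55 in uninjured and 1.82, 1.94, 1.83, 2.13 and 2.06 in injured DRG. The lowest injured array exceeded the highest uninjured array. Uninjured DRG averaged 1.40 ± 0.148 (SD, n = 4) and injured DRG 1.96 ± 0.136 (SD, n = 5), so that the level rose by 0.56 (SE 0.0901), or 1.47-fold (limma, adjusted p = 0.00127; exact permutation p = 0.00794). Net Cy5 was 656, 493, 652 and 625 against 986, 1085, 975, 1010 and 646, with the lowest injured value on injured 5, the array with the dimmest red channel. Both channels were above background on all 9 arrays. Within slide 2 the Pomc difference was 0.44. The fit with slide as a fixed block takes its difference from slide 2, so it gave the same value (SE 0.167, limma adjusted p = 0.176). The probe does not tell which of the peptides cut from this precursor was made.

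Several marker lists moved with Pomc over the 9 arrays. Pearson's r of Pomc with the list mean was 0.785 for satellite glia, 0.762 for macrophages, 0.69 for spinal cord, 0.685 for red blood cells, 0.649 for muscle, 0.605 for peptidergic nociceptors and -0.817 for non-peptidergic nociceptors. The lists for fibroblasts, endothelium, Schwann cells, large myelinated neurons and all sensory neurons gave between -0.003 and 0.523. These values are a description and include the difference between groups, and the part of these cells in the Pomc level was not tested. The macrophage list mean lay between -0.41 and 0.35 on the uninjured arrays and between 0.13 and 1.19 on the injured arrays, and 2 of its 8 markers were called, beside 25.4% of all genes. Without injured 2 and 5, the arrays with the highest macrophage and red blood cell lists, the Pomc difference was 0.53 (limma adjusted p = 0.00816).

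Penk, the enkephalin precursor, varied more between arrays of a group than between the groups. Its brightest probe, A_51_P102987 (listed as Penk1, chr4:4060735-4060794, mm7), had levels of 3.60, 3.95, 4.21 and 4.58 in uninjured and 3.81, 4.63, 3.81, 4.24 and 5.18 in injured DRG. The groups overlapped, with the highest level on injured 5 and the lowest on uninjured 1. The means were 4.09 ± 0.416 (SD, n = 4) and 4.33 ± 0.581 (SD, n = 5), and the difference was 0.25 (SE 0.287, 95% interval -0.39 to 0.88, limma adjusted p = 0.581). Net Cy5 ran from 1946 to 4121 in uninjured and from 2466 to 4928 in injured DRG. The other probe, A_52_P286166 (chr4:4061458-4061517, mm7), had a difference of 0.14 (SE 0.214, limma adjusted p over probes = 0.701).

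The probes of Penk followed each other from array to array, with r = 0.96 over the 9 arrays. The genes whose levels were most like those of Penk were Vtn (r = 0.986), Tor4a (r = 0.976) and Csf1r (r = 0.974), where Vtn encodes vitronectin and Csf1r the receptor of macrophage colony-stimulating factor. The mean of the fibroblast and sheath list, which holds Col1a1, Col1a2, Dcn, Lum and Pdgfra, was highest on injured 5 (0.76), uninjured 3 (0.49) and injured 2 (0.49), and lowest on uninjured 2 (-0.54). None of its 5 genes was called. Pearson's r of Penk with the list means over the 9 arrays was 0.817 for endothelium, 0.812 for fibroblasts and sheath, 0.788 for macrophages, 0.777 for large myelinated neurons and 0.734 for red blood cells, and -0.735 for non-peptidergic nociceptors. It was 0.692 for satellite glia, 0.657 for peptidergic nociceptors and 0.59 for all sensory neurons. The lists for muscle, spinal cord and Schwann cells gave between -0.153 and 0.243. The lists of endothelium (0.52), satellite glia (0.48) and red blood cells (1.22) were also highest on injured 5. So were those of peptidergic nociceptors (0.37), large myelinated neurons (0.26) and all sensory neurons (0.15). The part of these cells in the Penk levels was not tested. Within slide 2 the Penk difference was 0.94, and without injured 2 and 5 it was -0.13, neither of which was called.

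**Figure D3:**
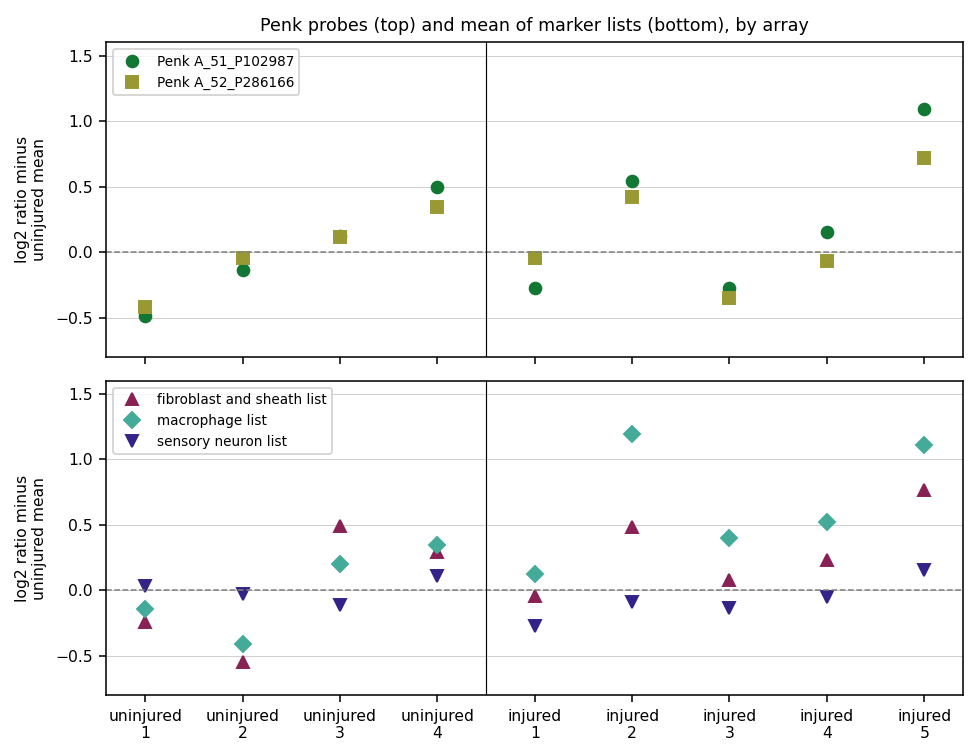
Levels of both Penk probes (top) and means of 3 marker lists (bottom) on each array, in log2 relative to the mean of the 4 uninjured arrays. Penk, the fibroblast and sheath list and the sensory neuron list are each highest on injured 5. The sensory neuron list runs from -0.27 to 0.15.

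Pdyn, the dynorphin precursor, had overlapping groups. Its probe, A_52_P586928 (chr2:129427440-129427499, mm7), had levels of 1.14, 1.17, 1.56 and 1.95 in uninjured and 1.51, 0.79, 0.77, 1.11 and 1.00 in injured DRG. The difference was -0.42 (SE 0.191, 95% interval -0.84 to 0.004, limma adjusted p = 0.14). On slide 2 alone, from which the fit with slide as a fixed block takes its difference, it was -0.043. The red channel alone differed by -0.04 (SE 0.138, adjusted p = 0.857). In the reference channel alone, which held the same RNA on all arrays, this probe was brighter on injured arrays by 0.39 (SE 0.0986, limma adjusted p over probes = 0.449). Net Cy3 was 29.4 to 74.0 on the uninjured arrays and 63.0 to 77.1 on the injured arrays. Without injured 1, the injured array with the highest level, the difference was -0.54 and was called (limma adjusted p = 0.0472). For the other 11 tested probes of these genes the reference channel differed by between -0.10 and 0.27.

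Pnoc, the nociceptin precursor, was also not called. The brightest of its 2 probes, A_51_P450469 (chr14:60261851-60261910, mm7), had levels of 0.38, 0.51, 0.60 and 0.75 in uninjured and 0.50, 0.30, 0.30, 0.46 and 0.46 in injured DRG. The difference was -0.16 (SE 0.0831, 95% interval -0.34 to 0.03, limma adjusted p = 0.2). The other probe, A_52_P425416 (chr14:60264987-60265046, mm7), differed by 0.005 (SE 0.0748, limma adjusted p over probes = 0.974). Pnoc and Pdyn were each the gene most like the other across arrays, with r = 0.94 over 9 arrays, 0.946 over the uninjured arrays and 0.873 over the injured arrays. With an offset of 0 in the background correction the Pnoc difference was -0.29 (SE 0.171, limma adjusted p = 0.267). Nociceptin is the ligand of the Oprl1 receptor. The Oprl1 difference of -1.57 rests on 1 of its 2 probes, and the sizes of the Pnoc and Oprl1 differences were not compared.

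Promoter sequence was at hand for 5 of the 8 genes: Oprm1, Oprd1, Oprl1, Pdyn and Pomc. It came from RefSeq on build GRCm38.p6, in windows of 250 bases before and 50 after a start. Penk, Oprk1 and Pnoc had no window, so nothing below covers them. The stretch upstream of a start is shown for the nociceptin and mu receptors, which were lower, and for Pomc, which was higher. Capitals mark a TATA box (TATAAA) or a GC box (GGGCGG) on either strand.
Oprl1 chr2:181714766-181715015 (+ strand): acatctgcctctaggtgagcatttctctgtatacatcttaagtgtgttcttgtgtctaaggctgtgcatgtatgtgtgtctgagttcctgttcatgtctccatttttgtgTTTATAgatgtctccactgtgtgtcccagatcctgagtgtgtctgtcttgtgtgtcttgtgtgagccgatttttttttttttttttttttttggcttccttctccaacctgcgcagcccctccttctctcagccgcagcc
Oprm1 chr10:6788320-6788569 (+ strand): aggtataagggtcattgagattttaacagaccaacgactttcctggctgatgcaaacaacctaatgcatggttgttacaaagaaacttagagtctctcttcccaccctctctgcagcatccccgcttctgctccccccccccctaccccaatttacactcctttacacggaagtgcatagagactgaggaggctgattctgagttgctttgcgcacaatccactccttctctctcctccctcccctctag
Pomc chr12:3954695-3954944 (+ strand): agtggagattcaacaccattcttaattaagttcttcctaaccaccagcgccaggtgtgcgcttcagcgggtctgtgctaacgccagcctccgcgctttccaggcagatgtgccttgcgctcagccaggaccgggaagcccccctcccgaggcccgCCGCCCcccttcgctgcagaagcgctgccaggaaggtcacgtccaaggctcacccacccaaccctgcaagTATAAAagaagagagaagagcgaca
The Pomc window holds a TATA box that starts at position -25 from the start site, and a GC box. The Oprl1 window shown has the TATA box letters at -140, and the other 2 windows of Oprl1 have neither motif. None of the 3 Oprm1 windows has either. In windows of this length, 13.6% of 32851 promoters hold the TATA box letters and 35.7% the GC box letters. Neither the cAMP response element TGACGTCA nor the AP-1 motif TGANTCA, each searched on both strands, occurred in any of the 10 windows of these 5 genes, and 1.79% and 7.81% of all promoters hold them. A match or its absence describes these letters in this window alone.

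The wider opioid system was followed through lists of 89 genes with known roles around the receptors and peptides. Of the 88 tested, 11 were called higher and 15 lower, and their median difference was -0.00018. As a share this is near the 25.4% called over all genes, so the lists as a whole did not stand apart by count. List medians ran from -0.14 for receptor regulators to 0.10 for other opioid-binding proteins, against 0.001 over all genes. Of the 26 called, 18 were called without injured 2 and 4 and 21 without injured 2 and 5, and all 26 kept their sign in both. Gng5, Ogfr, Pcsk1, Scg5 and Rest were called in neither setting, and Gnai3, Adcy1 and Adcy9 were not called without injured 2 and 4.

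Among effectors of the receptors, 4 of 13 tested genes were called lower and none higher, beside 14.0% lower and 11.4% higher over all genes, and the median was -0.05. Kcnj3 and Kcnj9, subunits of the G protein-gated inwardly rectifying potassium channels, had the largest falls, -1.24 (SE 0.184, limma adjusted p = 0.000759) and -0.90 (SE 0.119, adjusted p = 0.000358). Each had another probe that was lower too, by -0.44 and -0.48 (adjusted p over probes = 0.00477 and 0.0114). Kcnj6, another subunit, differed by -0.05 (SE 0.0503, adjusted p = 0.536), and Kcnj5 was not tested. The calcium channel gene Cacna1b, which encodes the N-type channel, differed by 0.13 (SE 0.0768, adjusted p = 0.268) on its brightest probe and was called higher, by 0.33, on another (adjusted p over probes = 0.0255). The P/Q-type channel gene Cacna1a differed by 0.06 (SE 0.0722, limma adjusted p = 0.587). Kcnj6, Kcnj5, Cacna1a and Cacna1b are the remaining channel genes of this list and were added after their values were seen.

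Among 18 Gi/o subunit genes, 2 were called higher and 3 lower, beside 11.4% higher and 14.0% lower over all genes. The alpha subunit genes Gnaz and Gnai1 fell by 0.51 (SE 0.077, limma adjusted p = 0.000889) and 0.46 (SE 0.0678, adjusted p = 0.000737). The alpha subunit gene Gnai3 and the gamma subunit gene Gng5 rose by 0.29 (SE 0.0826, adjusted p = 0.0261) and 0.42 (SE 0.109, adjusted p = 0.0165). Probes disagreed for Gnaz, where the other 2 probes were not called, and for Gnai1, where 2 of the other 3 were lower and 1 was not called.

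Of 18 receptor regulators tested, 4 were called higher and 6 lower, beside 25.4% of all genes in either direction. Rgs20, which speeds the shut-off of Gi-class G proteins and of Gz in particular, rose by 1.44 (SE 0.114, limma adjusted p = 1.18e-05). Arrb1, a beta-arrestin, rose by 0.79 (SE 0.0754, adjusted p = 4.12e-05), with its second probe higher by 0.32 (adjusted p over probes = 0.00944). Rgs10 and Rgs14, both of the same regulator family as Rgs20, fell by 0.66 (SE 0.0954, adjusted p = 0.00061) and 0.63 (SE 0.0669, adjusted p = 9.59e-05). Members of 1 family therefore moved in opposite directions.

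The kinases that phosphorylate active receptors also split, with Grk4 and Grk5 not called. The kinases, Arrb2 and Rgs19 are named after their values were seen. Grk2 and Grk3 were lower by -0.54 (SE 0.0851, limma adjusted p = 0.00108) and -0.57 (SE 0.102, adjusted p = 0.00247), while Grk6 was higher by 0.67 (SE 0.0725, adjusted p = 0.000102) on 3 of 3 probes. Grk2 was lower on 3 of 3 probes, and the other Grk3 probe was not called. Grk4 differed by -0.08 (SE 0.0933, limma adjusted p = 0.57) and Grk5 by 0.0055 (SE 0.0604, adjusted p = 0.963). Arrb2, the other beta-arrestin, was lower by -0.31 (SE 0.0634, adjusted p = 0.00519), opposite to Arrb1. Rgs19, whose gene lies near that of Oprl1 in the RefSeq order with Lkaaear1 between them, was higher by 0.46 (SE 0.054, adjusted p = 0.000181), against the fall of Oprl1.

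Of 13 genes for peptide processing, 1 was called higher and 1 lower, beside 25.4% of all genes called in either direction. Pcsk1, the prohormone convertase that makes the first cuts in Pomc, rose by 0.42 (SE 0.105, limma adjusted p = 0.0136), and its second probe was not called. Scg5, a chaperone of the other convertase Pcsk2, fell by 0.25 (SE 0.0832, adjusted p = 0.0463). Pcsk2 differed by 0.04 (limma adjusted p = 0.83) on its brightest probe. Its other probe was lower by -0.45 (adjusted p over probes = 0.0191), and these values were added after they were seen. None of the 10 genes for peptide breakdown was called in limma after adjustment, beside 25.4% of all genes. At an unadjusted p under 0.05, 3 of the 10 passed. The share of all genes at that looser limit was not counted and is at least the 25.4% called after adjustment.

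Of 4 other opioid-binding proteins, Ogfr, the receptor of met-enkephalin as a growth factor, rose by 0.33 (SE 0.102, limma adjusted p = 0.0387). The second Ogfr probe was not called (adjusted p over probes = 0.0932). Ogfrl1, related to Ogfr by name and sequence, fell by 1.01 (SE 0.0849, adjusted p = 1.85e-05), and its second probe was lower by -0.98. Of 12 transcriptional regulators linked to the receptor or precursor genes, 3 were called, a share like the 25.4% of all genes, and all 3 were higher. Creb1, a factor that binds cAMP response elements, rose by 0.49 (SE 0.0671, adjusted p = 0.000452) on 3 of 3 probes, and the DNA methyltransferase Dnmt1 rose by 0.45 (SE 0.0538, adjusted p = 0.0002). Rest, a repressor of neuronal genes including Oprm1, was higher by 0.28 (SE 0.0826, adjusted p = 0.0296), with 2 of 3 probes called, and is named after its values were seen. Another gene of this list, Kcnip3, differed by -0.21 (limma adjusted p = 0.343) on its brightest probe. Its other probe was lower by -0.40 (adjusted p over probes = 0.00271), and Kcnip3 too is named after its values were seen.

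**Figure D4:**
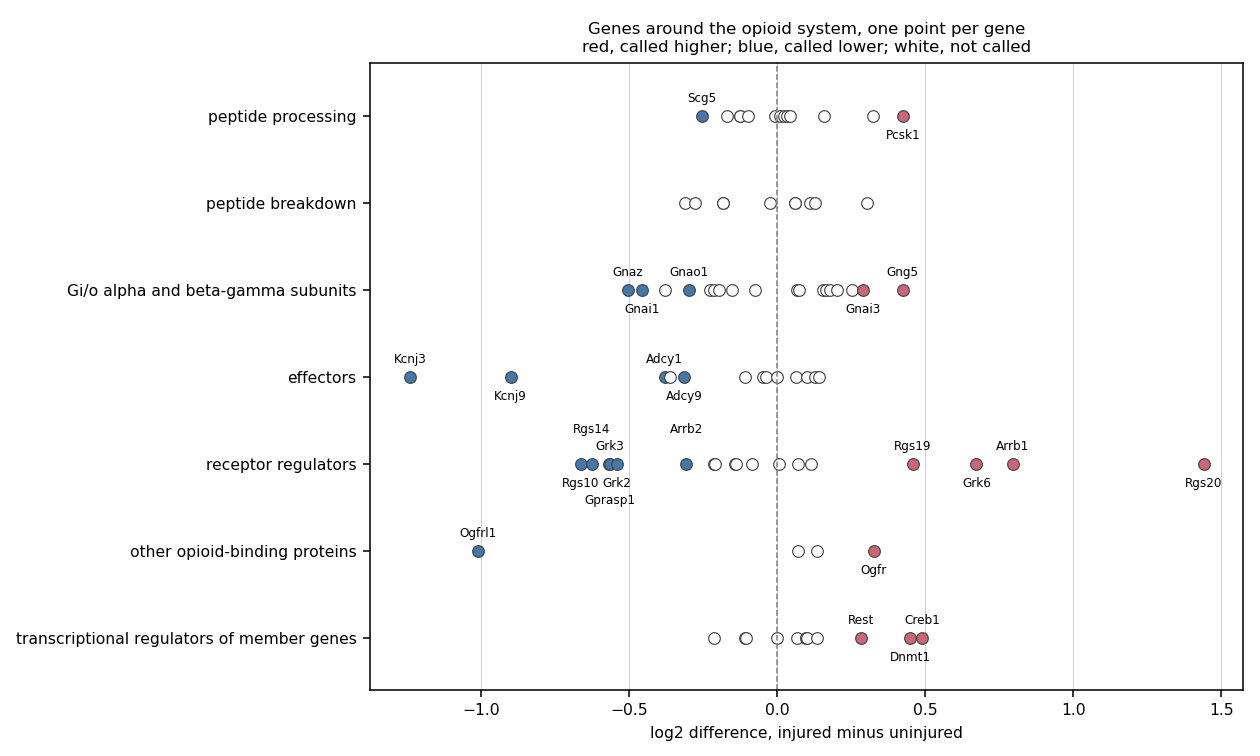
The difference in log2 (Cy5/Cy3), injured minus uninjured, of each tested gene of 7 lists around the opioid system; red points were called higher, blue points lower and white points were not called. Effectors hold 4 lower and no higher calls, receptor regulators hold calls on both sides, and the peptide breakdown list holds none; 25.4% of all genes were called.

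Outside these lists, the genes whose levels followed a receptor most closely over the 9 arrays were Mid1ip1, Fbxo21 and Mrpl44 for Oprl1 (r = 0.996, 0.996 and 0.994), Nxnl2, Chrna6 and Hlcs for Oprk1 (r = 0.992, 0.987 and 0.981), and Elf5 and Rfxap for Oprm1 (r = 0.992 and 0.991). All 8 had a lower mean in injured DRG, with differences from -1.01 to -0.38. For Pomc they were Dusp11, Eif3g and Tm2d2 (r = 0.985, 0.985 and 0.984). With groups that do not overlap, such r values reflect the difference between groups and describe likeness only. Of these, Chrna6, a nicotinic receptor subunit, had the largest difference, -1.01. Beside each other, Pdyn was like Upk1a (r = 0.91) and Pnoc like Gclm (r = 0.935).

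**Figure D5:**
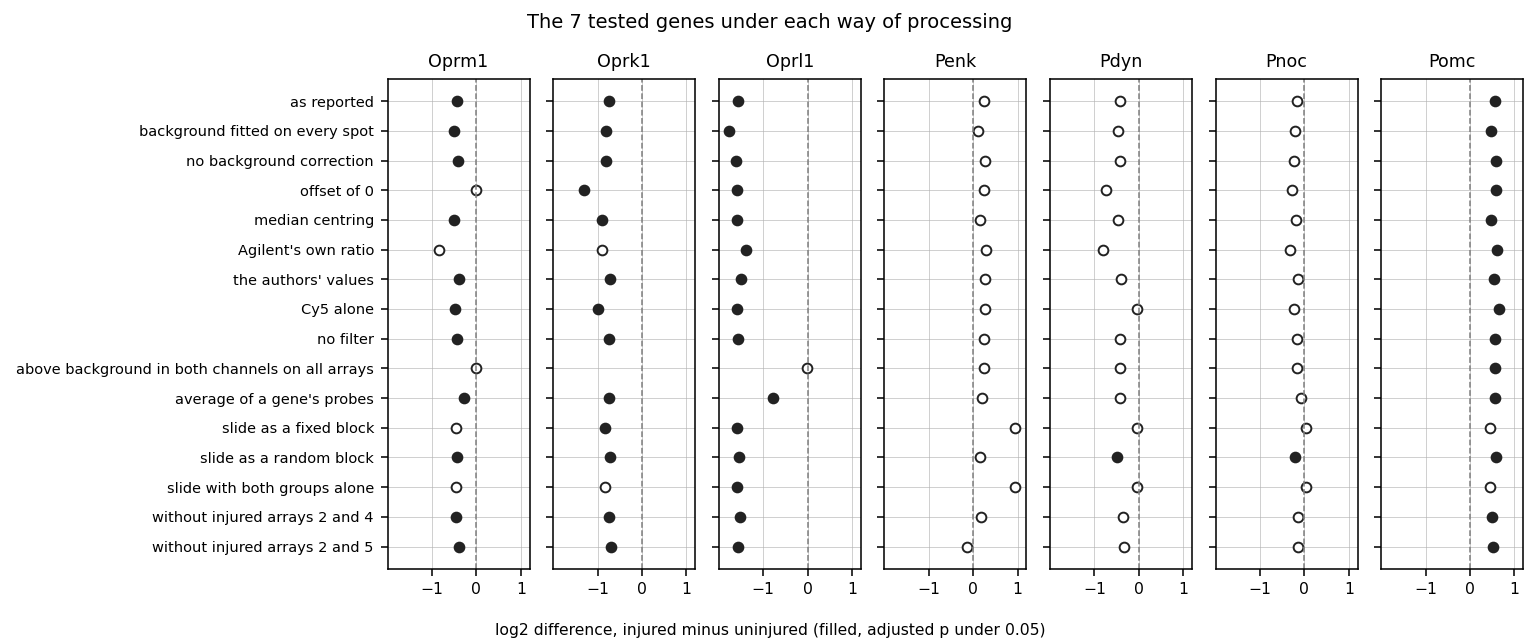
The difference of each of the 7 tested genes, injured minus uninjured in log2, under each way of processing the arrays; filled points had an adjusted p under 0.05. Oprl1 lies at -0.79 or lower except at -0.01, where a probe also had to be above background in the reference channel, and Pomc lies at 0.44 or higher.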

How the data were processed

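Gene expression was measured on 9 Agilent arrays of 2 colours. The spot intensities were made by the authors' scanner software, Feature Extraction 10.5.1.1, per the file headers, which also give a log10 ratio of Cy5 over Cy3. A table of log2 ratios per probe was deposited too. The labels name limma, with no version, among the tools of the submitters. Mean and local background intensities were corrected here with normexp (offset 50), fitted without spots of non-uniform background, normalised within arrays by loess and averaged over repeat spots of a probe in limma 3.58.1 (R 4.3.3). A probe was kept if its Cy5 signal stood well above background on 4 or more arrays (31192 probes), and the brightest probe stood for a gene. Injured and uninjured arrays were compared with moderated statistics in limma and Benjamini-Hochberg adjustment over all genes or, where stated, over all probes. The script was tested on simulated data. The reference channel alone was centred on each array's median. The red channel alone kept the offset of 50 and was brought to the same distribution on every array (quantile normalisation). Names came from RefSeq accession, symbol or older name, and otherwise from the file.

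The members and lists were chosen with earlier results of these data known. Named genes were all members, the 2 called genes with the largest rise and the 2 with the largest fall per list, and the 3 genes most like each tested member, some of which are not reported here, with further genes said in the text to be added after their values were seen. Array number limits precision. Figures were drawn in matplotlib 3.10.9.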

Additional observations from a re-analysis of the deposited data

Results flagged for a closer look

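On the brightest Oprm1 probe, injured 5 had a level of 0.28 (log2), apart from the other 4 injured arrays, which lay between 0.48 and 0.52. Its gap to the nearest array was 0.853 of the range of the group, above the Dixon limit for 5 samples. Over the 12 probes and both groups, 24 sets of arrays were examined, 1 had such an array, and chance gives about 1 in 20. Without injured 5, the Oprm1 difference was -0.39 (SE 0.0565, limma adjusted p = 0.000826). Injured 5 had the dimmest red channel of all arrays, with a median of 156. Net Cy5 of this probe was 28.8 there, against 49.4 to 85.5 on the other injured arrays. Whether dim signal set this array apart was not tested.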

How the results depend on the processing

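No paired analysis was possible because the replicate numbers were assigned by order and pair no samples. Pomc was called higher in 22 of 24 alternatives, Oprl1 lower in 23 of 24, Oprk1 in 21 of 23 and Oprm1 in 19 of 24. Requiring both channels above background on all arrays left the other probe for Oprl1 (-0.0094) and Oprm1 (-0.013) and none for Oprk1. With an offset of 0 the brightest Oprm1 probe became the third one, at 0.0013. Agilent's own ratio gave -0.85 for Oprm1 (SE 0.398) and -0.90 for Oprk1 (SE 0.363), neither called. Slide as a fixed block and slide 2 alone give the same difference by design. In both, Oprm1 differed by -0.46 and Pomc by 0.44, not called, Pdyn by -0.043, and Pnoc by 0.043, with its sign turned. Oprk1 on slide 2 alone was -0.84, not called. With slide as a random block (within-slide correlation -0.21), Pdyn (-0.50) and Pnoc (-0.20) were called lower. Penk was -0.13 without injured 2 and 5, a setting chosen after seeing the data, as was leaving out injured 2 and 4.

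Leaving out 1 array at a time, Oprl1 ran from -1.60 to -1.54, Oprk1 from -0.82 to -0.67, Oprm1 from -0.46 to -0.39, Pomc from 0.51 to 0.61, Penk from 0.04 to 0.41, Pdyn from -0.54 to -0.26 and Pnoc from -0.22 to -0.09. Of these, the call changed for Pdyn alone, without injured 1.

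The 5305 genes called became 2660 with median centring (36.9% of them higher, against 44.9%), 1191 with slide as a fixed block (52.9% higher), 132 on slide 2 alone (88.6% higher), 3017 without injured 2 and 4, and 1242 with a change above 1.5-fold (56.4% higher). With median centring the median of all genes was -0.05. The causes were not tested. Oprd1 and the reference channel of Oprk1 were limited by signal at background.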
